A study of Bos taurus with 10 samples.

Results

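Interferon response genes were described in the longissimus dorsi (a back muscle sold as loin) of Hanwoo, a native Korean breed of cattle. The genes were ISG15, MX1, MX2, RSAD2, IFI6, IRF7, BST2 and USP18. They were chosen by symbol, and every probe set whose platform annotation gave exactly 1 symbol, that of a member, was kept. This rule found 12 of the 13292 probe sets with 1 symbol and 7 of the 9155 named genes. BST2, a membrane protein that tethers virus particles, had no such probe set and was not measured.

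The study hybridised 10 muscle samples to Affymetrix Bovine Genome Arrays, 1 array a sample, and set expression against beef traits of the same cattle. No trait values were used here. All 10 samples form 1 group of skeletal muscle, and 1 of them carries an age label of about 2 years. The samples are called animals 1 to 10 after their titles. If they were not 10 separate animals, the p-values below measure only the spread between these samples.

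Type I interferons are secreted proteins that cells release on sensing viral nucleic acid. Their receptors act through JAK kinases and switch on a set of antiviral genes in most cell types. In skeletal muscle these genes are usually at a low basal level, and they are best known there from inflammatory muscle disease.

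The probe set signals were put on the scale log2(intensity + 16) after quantile normalization, on which the lowest possible value is 4. Skeletal muscle markers fitted the labelled tissue: 12 of 14 were measured, with mean levels of 15.22 to 16.05. In animal 5 the added poly(A) control RNAs had a 3 prime minus 5 prime difference of 2.80 log2 units, against 1.09 to 1.38 in the other animals. That library stood apart. Where a fit was repeated without it and the count of genes past the test changed, that count is also given. A test used genes with a mean level above 6.98, the median of all probe sets: MX1, RSAD2 and USP18 passed this filter and ISG15, MX2, IFI6 and IRF7 did not. For these 4 genes an adjusted p comes from the same fit without the filter.

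IRF7, a transcription factor that drives interferon production and is itself induced by interferon, had a lowest level of 4.52, a median of 7.11 and a highest of 7.94 (mean 6.93 ± 0.93, SD, n = 10). Animal 6 was alone at the bottom and the other 9 animals lay between 6.58 and 7.94. Without animal 6 the SD was 0.41.

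The measured antiviral effectors differed in how far they varied. MX1, a dynamin-like GTPase that blocks viral replication, ranged from 7.40 in animal 9 through a median of 8.01 to 8.93 in animal 6 (mean 8.07 ± 0.43, SD, n = 10). MX2, its neighbour on chromosome 1 in RefSeq's cattle assembly ARS-UCD2.0 and a GTPase of the same family, ranged from 4.31 in animal 10 through 4.61 to 5.98 in animal 4 (mean 4.89 ± 0.62, SD, n = 10). In most animals MX2 lay close to the floor of the scale, so its spread came from animals 3, 4 and 6, at 5.87, 5.98 and 5.35.

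RSAD2, or viperin, a radical SAM enzyme that makes a chain-terminating nucleotide, ranged from 6.45 in animal 2 through 7.12 to 8.40 in animal 6 (mean 7.21 ± 0.61, SD, n = 10). Animals 6 and 7, at 8.40 and 7.90, were the highest. IFI6, a small membrane protein that limits flavivirus replication, ranged from 5.36 in animal 10 through 7.22 to 7.88 in animal 6 (mean 6.97 ± 0.73, SD, n = 10). Animals 1, 5 and 10 lay between 5.36 and 6.43 and the other 7 between 7.16 and 7.88, with no overlap.

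ISG15, a ubiquitin-like protein that is attached to other proteins, had its lowest level of 4.89 in animal 1, a median of 7.01 and its highest of 7.87 in animal 6 (mean 6.69 ± 1.03, SD, n = 10). The range was 7.90-fold on the log2(intensity + 16) scale, and the deposited intensities ran from 15.2 to 229. Animals 1, 5 and 10, at 4.89, 5.54 and 5.54, formed a low cluster again, and the other 7 lay between 6.60 and 7.87. USP18, the protease that takes ISG15 off proteins and damps the interferon receptor, ranged from 5.96 in animal 10 through 7.10 to 7.997 in animal 5 (mean 7.13 ± 0.55, SD, n = 10). USP18 thus had its highest value in an animal of the low ISG15 cluster.

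**Figure D1:**
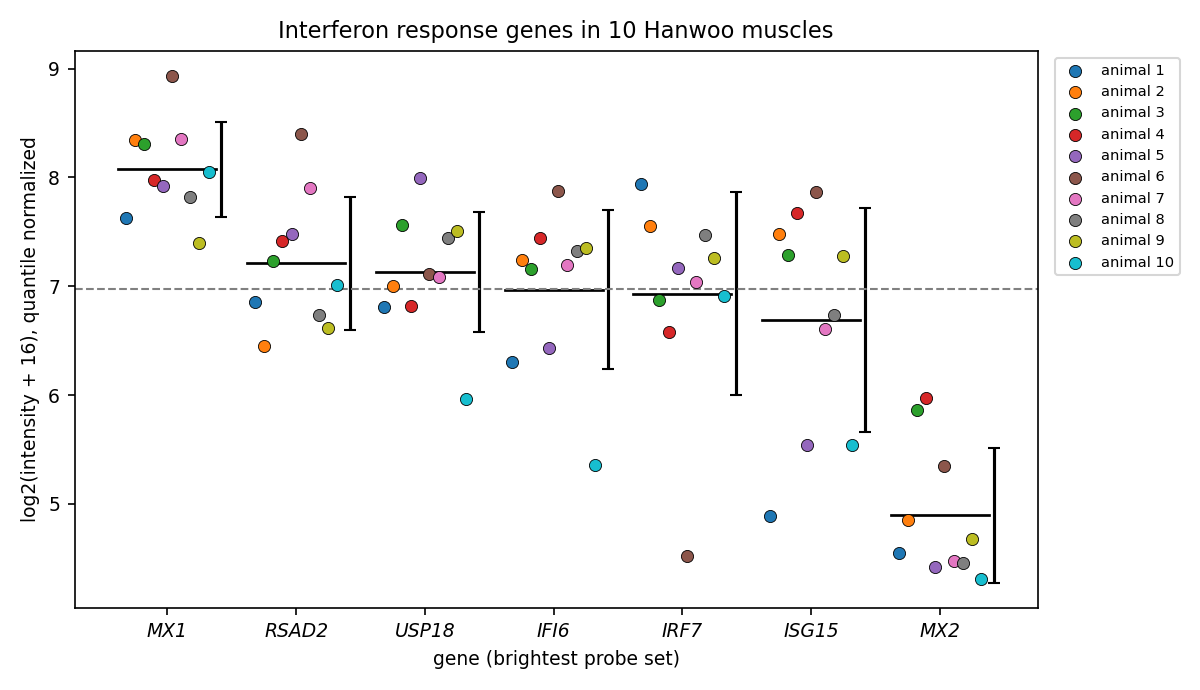
Level of each measured interferon response gene in 10 Hanwoo muscles, in log2(intensity + 16) after quantile normalization. Points are animals, horizontal lines means, error bars 1 SD and the dashed line the filter at 6.98. ISG15 spreads from 4.89 to 7.87 and MX1 only from 7.40 to 8.93, and animal 6 lies alone at 4.52 for IRF7.

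The SD over animals was above the median SD of all named genes, 0.43, in 7 of 7 measured members, MX1 barely so at 0.434 against 0.431. The count was 6 with the deposited scaling, median centring, either other pseudocount or the mean of probe sets, 6 without animal 9 or 10, and 5 without animal 6. ISG15 lay at percentile 97.9 of the SDs of all named genes, IRF7 at 95.8 and IFI6 at 84.4, while MX1 lay at 50.5. SD depends on the level on this scale, so each gene was also set beside genes of like mean level, within 0.5 log2 units. Those genes had a median SD of 0.60 for ISG15, 0.54 for IRF7 and 0.53 for IFI6, below the members' own 1.03, 0.93 and 0.73. For MX2 the median SD of such genes was 0.62, the same as its own.

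ISG15 was used as the index gene, and its level was set against each of the other 6 measured members over the 10 animals. IFI6 had the closest relation: r was 0.847 (two-sided permutation p = 0.00228) and rho 0.855 (permutation p = 0.00302). Without animals 1 and 10, the farthest from the median of ISG15, r was 0.887. Since animals 1, 5 and 10 form a cluster in both genes, the relation was also taken within the other 7 animals, where r was 0.650 (exact permutation p = 0.105). This split was made on the levels of ISG15 and IFI6 after they were seen.

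MX2 had r of 0.678 with ISG15 (two-sided permutation p = 0.0268) and rho of 0.806 (permutation p = 0.00701), and r was 0.670 without animals 1 and 10. Without animal 5 r was 0.644 (permutation p = 0.0550), and the p was also above 0.05 without animal 4, 6 or 10. Within the 7 animals outside the low cluster r was 0.684 (exact permutation p = 0.101). MX1 had r of 0.456 (permutation p = 0.188; rho 0.467, permutation p = 0.180), and 0.348 without animals 1 and 10. Leaving out 1 animal moved r of MX1 to between 0.267 (without animal 6) and 0.688 (without animal 9, permutation p = 0.0364).

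The brightest probe sets of the remaining members had no p below 0.05 with ISG15 over all 10 animals. RSAD2 had r of 0.20 (permutation p = 0.581; rho 0.139, permutation p = 0.708) and 0.02 without animals 1 and 10. USP18 had r of 0.194 (permutation p = 0.592; rho 0.20, permutation p = 0.583), which was -0.737 without animals 1 and 10. IRF7 had a negative r of -0.530 (permutation p = 0.102; rho -0.527, permutation p = 0.123), and -0.475 without them. Without animal 2 it was -0.631 (permutation p = 0.0439). The sign turned with the probe set: the other 2 probe sets of IRF7 had r of 0.396 (permutation p = 0.265; 0.698 without animals 1 and 10) and -0.06 (permutation p = 0.858), and the mean of the 3 had -0.269.

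None of these relations passed over all genes. In the limma fit on ISG15, in which a slope is the log2 change per SD of ISG15, 0 of 6271 genes passed an adjusted p of 0.05 (0%), and 453 had an unadjusted p below 0.05. With a trended and robust variance prior the count was also 0. MX1 had a slope of 0.20 (SE 0.13, adjusted p = 0.777, limma), RSAD2 0.12 (adjusted p = 0.896) and USP18 0.11 (adjusted p = 0.904). Without the filter 0 of 9154 genes passed (0%), with 689 at an unadjusted p below 0.05. There IFI6 had a slope of 0.62 (SE 0.13, adjusted p = 0.476, limma), MX2 0.42 (adjusted p = 0.583) and IRF7 -0.49 (adjusted p = 0.681).

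**Figure D2:**
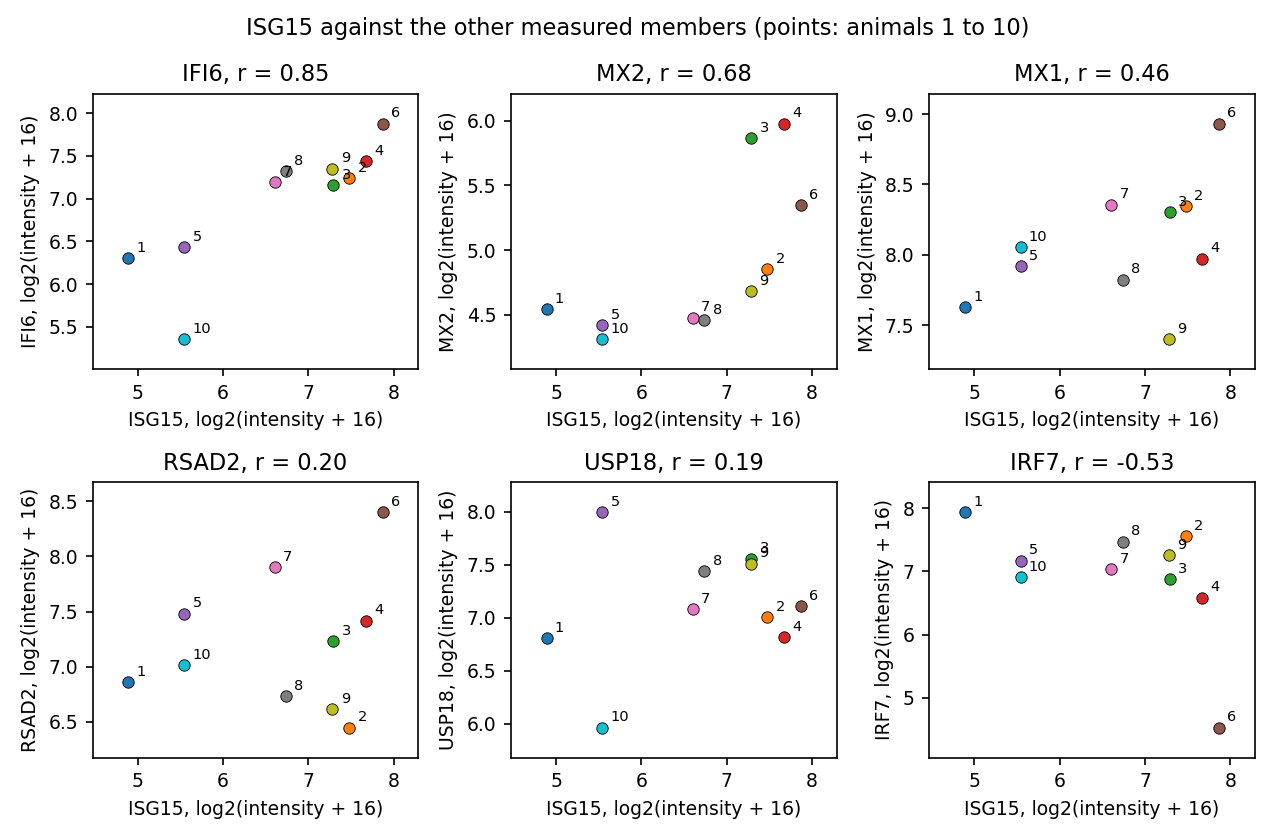
Level of ISG15 (horizontal axis) against each other measured member (vertical axis), both in log2(intensity + 16), with 1 numbered point an animal. IFI6 has r of 0.85, with animals 1, 5 and 10 apart at the lower left, and IRF7 runs the other way at -0.53 with animal 6 far below the rest.

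Among all 21 pairs of measured members, 15 had r above 0, the median was 0.20 and the extremes were -0.80 (RSAD2 and IRF7) and 0.85 (ISG15 and IFI6). The 15 pairs without IRF7 had a median of 0.34, with 14 above 0. The 6 pairs with the brightest IRF7 probe set had a median of -0.49, with 5 below 0. Without animal 6 the median over all pairs was 0.10, with 13 above 0, and over the pairs without IRF7 it was 0.22, with 12 above 0. The pairs share animals and arrays, so these values are a description.

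MX1 and RSAD2 had r of 0.687 with animal 6 and 0.402 without it. MX1 and IRF7 had r of -0.738 with animal 6 and -0.355 without it, and RSAD2 and IRF7 -0.799 and -0.579. IFI6 and USP18 had r of 0.481 with animal 5 and 0.773 without it, but their rho over all animals was 0.212. Animal 10 was the lowest in both genes, and their r without it was not taken. ISG15 and USP18 had r of 0.194 with animal 5, 0.532 without it and -0.156 without animal 10.

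The conjugation pathway of ISG15 was read beside it. UBA7, the enzyme that activates ISG15, ranged from 5.999 in animal 1 through 7.79 to 8.37 in animal 6 (mean 7.56 ± 0.66, SD, n = 10). Animals 1 and 10 were the lowest, while animal 5, low in ISG15, was at 7.83. Over all 10 animals its slope on ISG15 was 0.54 (SE 0.13, r = 0.815, limma adjusted p = 0.574). Without animal 5 its slope was 0.67 (SE 0.09, r = 0.956, limma adjusted p = 0.0278), and UBA7 and BCAS1 were the 2 of 6275 genes that rose past the test (0.0319%). Without animal 1, the lowest in ISG15 and in UBA7, the slope was 0.28 for UBA7 and 0.63 for BCAS1. Over all 10 animals these slopes were 0.54 and 0.96. UBA7 and BCAS1 also passed when the poly(A) control difference was a second covariate, with limma adjusted p of 0.0208 and 0.00436. Animal 5 stood alone in that difference (2.80 against 1.09 to 1.38). This fit thus comes close to leaving animal 5 out and is not a separate result. Within the 7 animals outside the low ISG15 cluster UBA7 had r of 0.822 with ISG15 (exact permutation p = 0.0151). UBA7 was among the list genes named for their r over all 10 animals, these 7 included, so this p is a description.

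The later steps of conjugation were named after their values were seen. HERC5, the ligase that attaches ISG15 to proteins, had a mean of 5.63 ± 0.80 (SD, n = 10), below the filter. Its r with ISG15 was 0.757, and 0.883 without animal 5 (limma adjusted p = 0.530 over all genes and all 10 animals). UBE2L6, the carrier enzyme between UBA7 and HERC5, had a mean of 7.98 ± 0.44 (SD, n = 10) and r of 0.231 (limma adjusted p = 0.880). The differences between these values were not tested.

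By Pearson r over 10 animals, the 12 tested genes most like ISG15 ran from 0.920 for GALM, a sugar mutarotase, down to 0.861 for CEACAM1, an adhesion receptor. Between them lay BCAS1, ALDH9A1, DYNLT3, WDFY2, PRKCI, PCCA, APBB1IP, ANXA4, DPYSL2 and LIAS. No gene of the list of other interferon-stimulated genes was among them. That list held 24 of the 6271 tested genes, a share so small that this absence is no result about the list. Its largest r were 0.833 for TRIM5 and 0.815 for UBA7. GALM had a slope of 0.57 (limma adjusted p = 0.186) and BCAS1 of 0.96 (limma adjusted p = 0.172), and none of the 12 passed. Within the 7 animals outside the low cluster, GALM had r of 0.712 (exact permutation p = 0.0754) and BCAS1 0.773 (exact permutation p = 0.0367). Both genes were picked for their r over animals that include these 7, so these p-values are a description.

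At the other end lay NEB, PPRC1, GID8, IKBKG, DUSP10 and MTA1, with r of -0.951 to -0.879. NEB encodes nebulin, the giant protein of the muscle thin filament. Its r of -0.951 came with a slope of only -0.07 at a mean level of 15.37. None of these 6 passed the test.

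When IFI6 was the index gene, 1 of 6271 genes passed (0.0159%), with 524 at an unadjusted p below 0.05. This was ABHD11, a mitochondrial hydrolase, which rose with IFI6 (slope 0.93, SE 0.09, r = 0.979, limma adjusted p = 0.000673). ABHD11 lay between 5.59 and 6.97 in animals 1, 5 and 10 and between 7.80 and 8.87 in the other 7. Without animal 10 its slope was 0.61 (limma adjusted p = 0.0873) and 0 genes passed. Within the 7 animals its r with IFI6 was 0.749 (exact permutation p = 0.0831). ABHD11 was picked for its r over animals that include these 7 and animals 1, 5 and 10. This p and its low values in those 3 animals are therefore a description.

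The next genes by r with IFI6 were MED18, a subunit of the Mediator complex, at 0.974 (limma adjusted p = 0.0597) and TAP1, at 0.928 (limma adjusted p = 0.0825). TAP1 is a subunit of the peptide pump that loads MHC class I and is itself induced by interferon. Both had their lowest 3 values in animals 1, 5 and 10: MED18 lay at 6.07 to 6.89 there against 7.42 to 7.72, and TAP1 at 7.29 to 7.97 against 8.11 to 8.85. Both genes were picked for their r with IFI6 over the same animals, so this split is a description. Without animal 5, 22 genes passed with IFI6 (0.351%), 21 of them upward, and TAP1 was among them (limma adjusted p = 0.0397). Over the fits with 1 animal left out, limma adjusted p ran from 0.0397 to 0.278 for TAP1 and 0.0154 to 0.339 for MED18. Without animal 10 their slopes were 0.37 and 0.29, against 0.48 and 0.50 with all animals. Within the 7 animals r with IFI6 was 0.609 for TAP1 (exact permutation p = 0.145) and 0.613 for MED18 (exact permutation p = 0.116).

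**Figure D3:**
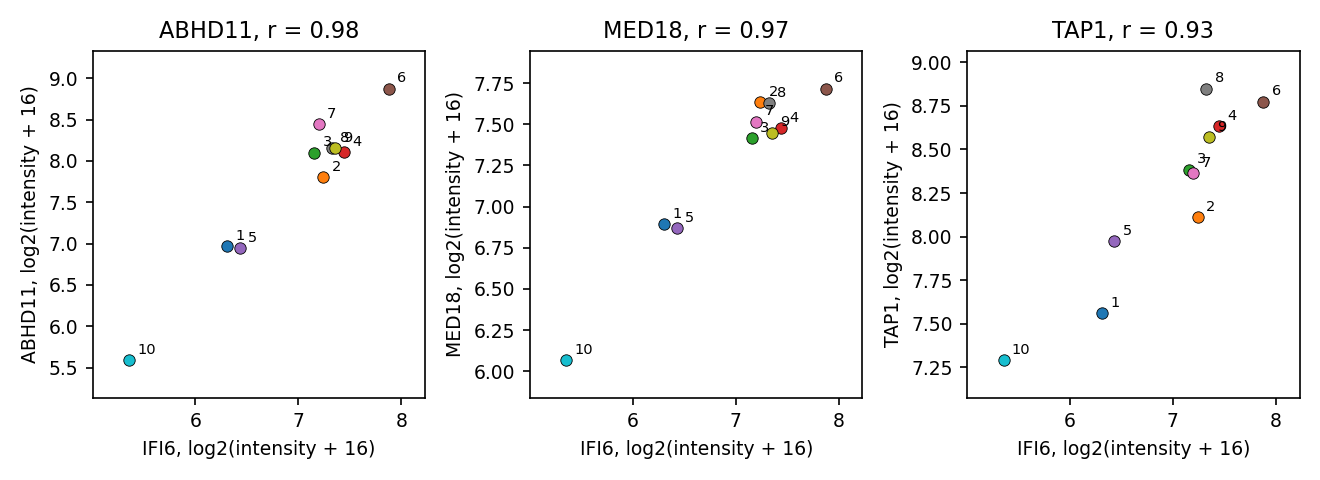
Level of IFI6 (horizontal axis) against the 3 tested genes most like it (vertical axes), in log2(intensity + 16), with 1 numbered point an animal. In ABHD11, MED18 and TAP1, animals 1, 5 and 10 lie at the lower left. In TAP1 they are barely apart from the other 7, at up to 7.97 against 8.11 and above.

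When IRF7 was the index gene, 7 of 6271 genes passed (0.112%), with 457 at an unadjusted p below 0.05. NAT14, E4F1, PAFAH2, STXBP2, FUBP1 and CIAO3 rose with IRF7, and MYH3, the embryonic myosin heavy chain, fell by 1.24 per SD of IRF7 (limma adjusted p = 0.0304). The 3 largest r were 0.946 for E4F1, 0.940 for NAT14 and 0.931 for PAFAH2. Without animal 6 these were 0.643, 0.662 and 0.702, and 0 genes passed. The count was also 0 without animal 2, 7 or 9, 3 without animal 1, 15 without animal 4 and 20 without animal 5.

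The probe sets of IRF7 did not run together. The other 2 had means of 6.60 ± 0.56 and 5.89 ± 0.66 (SD, n = 10 each), and animal 6 was at 6.76 and 6.32 there. Between the 3 probe sets r was -0.02, -0.12 and -0.13, so 0 of 3 pairs were above 0. With the mean of its probe sets as the index, 0 genes passed with IRF7. The low value of animal 6 and the genes that passed with IRF7 therefore rested on 1 probe set.

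USP18 had 4 probe sets, and 5 of their 6 pairs had r above 0 (from -0.14 to 0.81, median 0.36). Against ISG15 their r differed: the brightest had 0.194, and the third, with a mean of 6.26, had 0.795 (two-sided permutation p = 0.00923), with rho of 0.455 (permutation p = 0.193) and r of 0.51 without animals 1 and 10. With the mean of all USP18 probe sets r with ISG15 was 0.595 (permutation p = 0.0713). Leaving out 1 animal in turn gave r of -0.16 to 0.53 for the brightest.

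**Figure D4:**
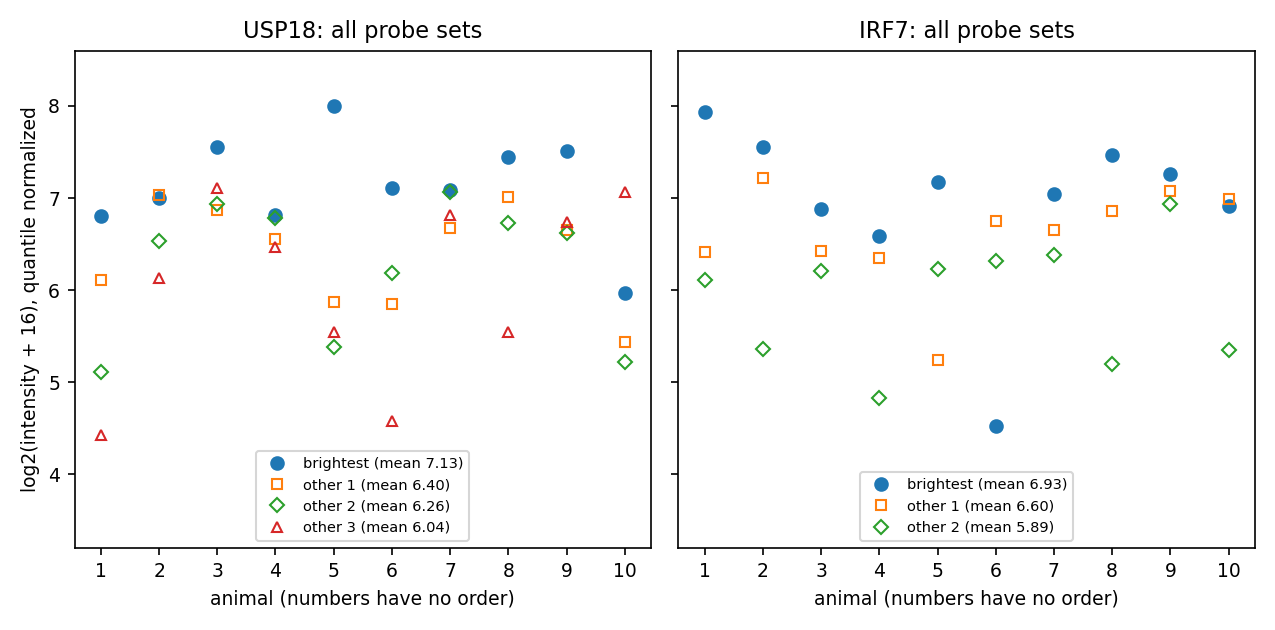
Level of every probe set of IRF7 and of USP18 in animals 1 to 10, in log2(intensity + 16) after quantile normalization. The brightest probe set of IRF7 drops to 4.52 in animal 6, where the other 2 are at 6.76 and 6.32.

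For the members that gave no called gene as index, the count was 0 for MX1 and for RSAD2 (0% of 6270 each), for MX2 (0% of 6271) and for USP18 (0% of 6270), by limma. The counts at an unadjusted p below 0.05 were 315, 438, 200 and 893. The fits on these members were not repeated with an animal left out, animal 5 included. By r, MX1 was most like APOOL at 0.967, ATP5PF at 0.884 and MRPS15 at 0.877, all mitochondrial proteins encoded in the nucleus. RSAD2 was most like MYH7, the slow myosin heavy chain, at 0.924, then B3GNT9 at 0.921 and VPS18 at 0.880. MX2 was most like C2CD5, TMEM216 and JKAMP, at 0.868 to 0.875, and USP18 most like NXN, ZFYVE26 and EIF4E, at 0.910 to 0.927.

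The wider pathway was read in the fit on ISG15, where 0 genes of any list passed (0% of all 6271). Of 48 other interferon-stimulated genes measured, 24 were tested, and 18 of 24 slopes were above 0 (75%), with a median of 0.10. Over all tested genes 55.6% of slopes were above 0, with a median of 0.02. Leukocyte markers had a higher share, 10 of 12 (83.3%, median 0.23), and adipocyte markers the same share, 6 of 8 (75%, median 0.28). Endothelial markers had a lower share, 7 of 10 (70%, median 0.06), as did skeletal muscle markers, 4 of 12 (33.3%, median -0.004). The 1 red cell marker tested had a slope of -0.13. The part of these cell types in the interferon list's share was not tested. TRIM5, a restriction factor that binds retroviral capsids, had a slope of 0.44 (r = 0.833, limma adjusted p = 0.574). UBA7, EPSTI1 and TRIM25 followed by r, at 0.815, 0.726 and 0.645, and the smallest were ZNFX1 at -0.286 and LY6E at -0.290.

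The receptors and their signalling chain had 14 measured and 11 tested genes, with 6 slopes above 0 and a median of 0.01. PTPN6, a phosphatase of blood cells that also stands in the leukocyte list, had r of 0.842, and IRF9 and STAT2, transcription factors of interferon signalling, had 0.404 each. IFNAR2, a chain of the type I interferon receptor, had 0.284. PTPN1 had -0.406, and IFNGR2, a chain of the interferon gamma receptor, had -0.623 with a slope of -0.23.

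The genes of nucleic acid sensing had 18 measured and 13 tested members, with 7 slopes above 0 and a median of 0.00. TICAM2, TANK, IRF3 and IRAK4 had r of 0.547, 0.310, 0.256 and 0.194, and TRAF6 and CYLD had -0.431 each. In the MHC class I list 16 were measured and 15 tested, with 9 slopes above 0 and a median of 0.05. TAP1 had a slope of 0.41 (r = 0.800), and PSMB8, B2M and TAP2 followed at r of 0.589, 0.488 and 0.396, while ERAP1 had -0.244 and CALR -0.354. The slope of B2M was 0.30 with all animals and 0.09 without animal 5, and that of PSMB8 0.38 and 0.23.

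Of the interferon genes themselves, 4 were measured. IFNB1 stayed near the floor of the scale at 4.31 ± 0.09 (SD, n = 10). IFNG had 5.40 ± 0.70 (SD, n = 10), IFNT2 5.77 ± 0.70 (SD, n = 10) and IFNAC 7.24 ± 0.53 (SD, n = 10). IFNAC, the sole one tested, had r of -0.187 with ISG15.

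Animal 6 held the highest level of 4 of 7 measured members (57.1%): ISG15, MX1, RSAD2 and IFI6. It held the highest level of 11 of 24 tested other interferon-stimulated genes (45.8%), of 13 of the 48 measured (27.1%), and of 730 of 6271 tested genes (11.6%). Its median deviation from the gene mean was 0.86 for the members, 0.38 for the other tested interferon-stimulated genes and 0.01 for all tested genes. Animal 10 held the lowest level of 3 of 7 members, MX2, IFI6 and USP18, against 12.5% of all tested genes. Of the 24 tested other interferon-stimulated genes animal 10 was lowest in 3 (12.5%), animal 1 in 8 (33.3%) and animal 5 in 5 (20.8%). Over all tested genes animal 1 was lowest in 10.1% and animal 5 in 27.6%.

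**Figure D5:**
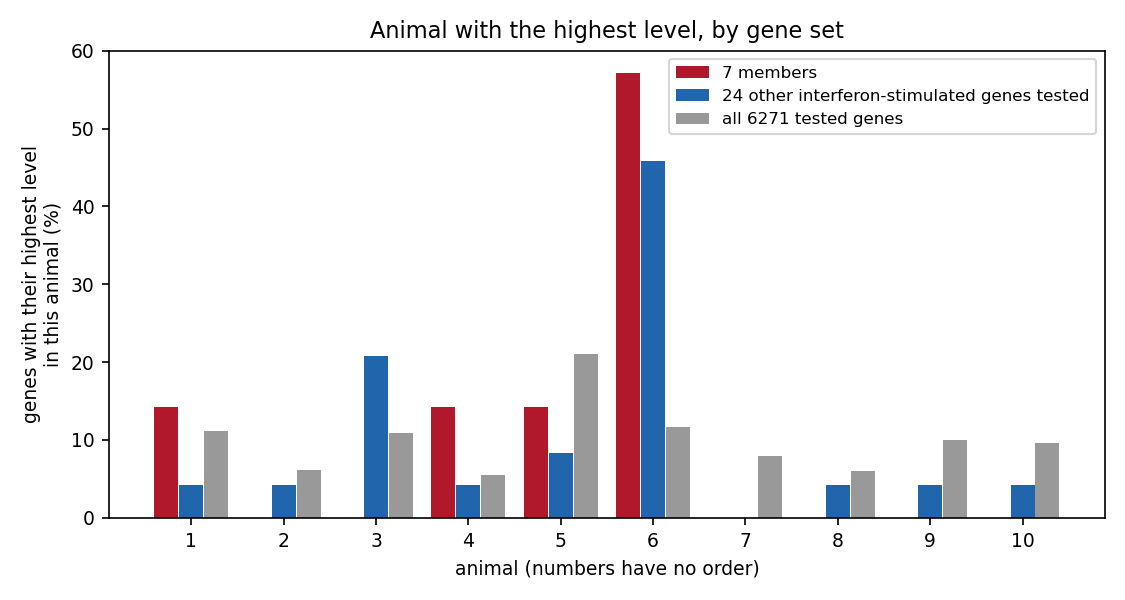
Share of genes (%) with their highest level in each animal, for the 7 measured members, the 24 tested other interferon-stimulated genes and all 6271 tested genes. Animal 6 holds 57.1%, 45.8% and 11.6% of these sets.

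Leukocyte markers were read beside these values. For r with a score of these markers, 0 of 7 measured members had a permutation p below 0.05 (lowest 0.0917). Of 37 markers 33 were measured and 12 tested, with mean levels over animals of 4.79 to 8.79, and the summed list had a mean of 6.0 to 6.99 per animal. Their score was highest in animal 6, at 0.70, and lowest in animal 5, at -0.79, and animal 6 held the highest level of 5 of the 12 (41.7%). In bulk tissue more cells of a type and more RNA per cell cannot be told apart. In the fit on this score 18 of 6259 genes passed (0.288%), and 0 of the 3 tested members did. The count was 0 without any 1 of animals 3 to 9, animal 5 included, and 2 without animal 10. MX1 had a slope of 0.07 (limma adjusted p = 0.854), RSAD2 0.18 (adjusted p = 0.642) and USP18 -0.11 (adjusted p = 0.781).

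Without the filter, where 1 of 9122 genes passed (0.011%), ISG15 had a slope on the leukocyte score of 0.52 (limma adjusted p = 0.467), IFI6 of 0.35 (adjusted p = 0.503) and IRF7 of -0.55 (adjusted p = 0.396). The r of IFI6 with the score was 0.478 (permutation p = 0.162; 0.201 without the 2 animals farthest from the median score) and rho 0.758 (permutation p = 0.0144). With the score as a second covariate in the fit on ISG15, BCAS1 passed and UBA7 did not. The part of leukocytes in the levels of animal 6 was not tested.

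The poly(A) control difference called 969 of 6271 genes (15.5%) and 0 without animal 5, and 0 of the 3 tested members were among them. USP18 had the largest slope of these 3, 0.27 (limma adjusted p = 0.265). Without the filter (7.36% called), ISG15 had -0.48 (adjusted p = 0.373), MX2 -0.24 (adjusted p = 0.507), IFI6 -0.22 (adjusted p = 0.617) and IRF7 0.06 (adjusted p = 0.925). MX2 had r of -0.388 with this difference (permutation p = 0.220) and rho of -0.673 (permutation p = 0.0383). The 3 prime minus 5 prime difference of the GAPDH and actin controls had r of -0.577 with ISG15 (permutation p = 0.0801). Over the 7 measured members that r ran from -0.577 to 0.449, with 0 at a permutation p below 0.05. The level of the hybridization controls, 11.18 to 13.14 over the arrays, had r of -0.61 with ISG15 (permutation p = 0.0626; rho -0.564, permutation p = 0.0955), and -0.433 without the 2 animals farthest from its median. In animals 1, 5 and 10 that control level was 12.65 to 13.14, against 11.18 to 13.00 in the other 7, and its part in their low ISG15 was not tested.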

How the data were processed

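Poly(A) RNA was selected with oligo(dT) resin from Trizol RNA of 10 longissimus dorsi samples, labelled with biotin and hybridised by the maker's protocol, per the labels' protocols. The deposited intensity values are linear signals per probe set, with their software not given in the sources used here. After trimming 2% at both ends, each array had a mean of 500.177 to 500.203, so the deposited values were scaled to a common level, and whether they were otherwise normalized is unknown. The number of arrays limits the precision.

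Control probe sets (112) were left out, 24016 remained, and 13292, 86 and 10638 of them had 1, several or no symbol in the platform annotation, which can be old (0 symbols needed updating). Values were taken as log2(intensity + 16), quantile normalized, and the brightest probe set stood for a gene. Covariation was tested with limma 3.58.1 in R 4.3.3 (lmFit, eBayes, Benjamini-Hochberg over all tested genes), with the covariate in SD units and genes above the median level of 6.98. Single relations used permutation tests with 100000 resamples, or exact enumeration within 7 animals. The fit was tested on simulated data.

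Named genes were all members, the 12 largest and 6 smallest r with ISG15, the 3 largest r with each other member, the 4 largest and 2 smallest of each pathway list, and any list gene past the test. The members and lists were chosen with earlier results of these data known. Alternatives were the deposited scaling, median centring, pseudocounts 1 and 64, no filter or a filter at the 75th percentile, the mean of probe sets, another variance prior, second covariates, other index genes, and each animal left out. Promoter and protein sequences were not used here.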

Additional observations from a re-analysis of the deposited data

Results flagged for a closer look

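In 10 of the 76 genes, probe sets and array measures examined, 1 animal stood apart from the other 9: its gap to the nearest of them, over the whole range, was above the critical value of Dixon's test for 10 samples. Chance alone gives such a gap in about 1 in 20 groups, a rate that does not apply to genes chosen for their r with an index gene: E4F1, NAT14 and PAFAH2 were chosen for likeness to the IRF7 probe set, and GALM, PRKCI and MED18 for likeness to ISG15 or IFI6. Animal 6 was apart in the brightest IRF7 probe set (ratio 0.603; 4.52 against 6.58 to 7.94) and in the genes most like it, E4F1 (0.685; 5.50 against 7.27 to 8.09), NAT14 (0.624; 5.52 against 7.45 to 8.61) and PAFAH2 (0.492; 6.05 against 7.32 to 8.64). The second IRF7 probe set had animal 5 apart instead (0.562; 5.24 against 6.35 to 7.22).

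Animal 1 was apart in GALM (0.516; 5.90 against 6.94 to 7.92) and in PRKCI (0.522; 5.67 against 6.81 to 7.86), both among the genes most like ISG15. Animal 10 was apart in MED18, a gene most like IFI6 (0.485; 6.07 against 6.87 to 7.72). Animal 5 was apart in B2M, the light chain of MHC class I (0.689; 12.56 against 14.05 to 14.72), and in the poly(A) control difference (0.831; 2.80 against 1.09 to 1.38).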

How the results depend on the processing

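No paired analysis was possible because there is 1 group. BST2 could not serve as an index gene, as it was not measured. The relation of ISG15 and IFI6 had r of 0.812 to 0.934 over its 15 alternatives. That of ISG15 and MX2 had r of 0.634 to 0.721, and its permutation p rose above 0.05 without animal 4, 5, 6 or 10 (up to 0.0628). Genes called with ISG15 (0) numbered 0 to 2 with 1 animal left out, 2 with the poly(A) difference and 1 with the leukocyte score as second covariate, and 1 and 7 with IFI6 or IRF7 as the index. The other alternatives with these 2 index genes were added after seeing the data. With IFI6 (1) there were 6 at pseudocount 1, 3 with no filter, 0 at the 75th percentile, 3 with the mean of probe sets, and 0 (without animal 10) to 22 (without animal 5). With IRF7 (7) there were 3 with the deposited scaling, 17 at pseudocount 1, 0 at pseudocount 64, 0 at the 75th percentile, 0 with the mean of probe sets, 2 with the other variance prior, and 0 to 20 with 1 animal left out. With the leukocyte score (18) there were 7 with the deposited scaling, 5 with median centring, 0 at pseudocount 64, 1 with no filter, 6 with the mean of probe sets, 29 with the other prior, 0 with the GAPDH and actin difference as a covariate, and 0 to 17 with 1 animal left out. With the poly(A) difference (969) there were 0 to 1047. The causes were not tested.

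With 1 animal left out, some values that had not passed changed sign. On ISG15, r of RSAD2 ran from -0.11 to 0.37 and of USP18 from -0.16 to 0.53. Slopes on ISG15 ran from -0.27 to 0.043 for CALR, -0.17 to 0.0027 for ERAP1, -0.026 to 0.13 for IRAK4, -0.025 to 0.14 for IRF3, -0.17 to 0.011 for PTPN1, -0.054 to 0.21 for RSAD2, -0.062 to 0.26 for USP18 and -0.15 to 0.077 for ZNFX1. Slopes on the leukocyte score ran from -0.19 to 0.16 for MX1, -0.13 to 0.32 for RSAD2 and -0.24 to 0.086 for USP18. Slopes on the poly(A) difference ran from -0.080 to 0.045 for MX1 and -0.19 to 0.33 for USP18.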

Other observations

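The dimmer interferon-stimulated genes, 24 of the 48 measured, lay below the filter and were read in the fit on ISG15 without it. Their slopes were above 0 in 15 of 24 (62.5%), with a median of 0.06, against 50.7% and 0.00 for all 2883 genes below the filter, and 0 of them passed. The genes named here were chosen after their values were seen. GBP4, a guanylate-binding protein, had a slope of 0.45 (limma adjusted p = 0.626), and XAF1, an inducer of cell death, 0.27 (adjusted p = 0.676). At the other end OAS1X, of the family that makes the activator of RNase L, had a slope of -0.41 (limma adjusted p = 0.704), and IFIT2, which binds foreign RNA, -0.27 (adjusted p = 0.804). The slope of IFNG, the type II interferon, was -0.42 (limma adjusted p = 0.636).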
